A study of Homo sapiens with 4 samples.

Results

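Transcripts of 9 tubulin genes were examined in K562 cells, a human leukaemia line with erythroid features, with or without clofarabine. They were taken by name from the 23615 genes of the deposited table, and all 9 were present. The alpha-tubulin genes are TUBA1A, TUBA1B, TUBA1C and TUBA4A, the beta-tubulin genes TUBB, TUBB2A, TUBB3 and TUBB6, and TUBG1 encodes gamma-tubulin. One group of 2 samples was treated for 3 h with 5 µM clofarabine, a deoxyadenosine analogue, from a DMSO stock that left 0.005% DMSO in the medium. The other group of 2 samples received DMSO for 3 h, and both groups were grown in RPMI with serum. The comparison asked which messenger RNAs differ between drug-treated and solvent-treated cells.

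Microtubules are polymers of alpha-beta tubulin heterodimers, and gamma-tubulin nucleates them at centrosomes and within spindles. Newly made tubulin is folded by prefoldin, the cytosolic chaperonin and a set of tubulin cofactors before it can assemble. Cells also hold tubulin messenger RNA in check: when soluble tubulin is in excess, TTC5 binds the first residues of tubulin as they leave the ribosome and directs the message to decay through SCAPER and the CCR4-NOT deadenylase.

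The libraries are called C0 and C1 (clofarabine) and V0 and V1 (DMSO). The table names its conditions only by these letters, which were read as clofarabine and vehicle. If the letters meant the reverse, each direction stated would turn round. Estimated fragments summed to between 8370550 and 23888755 per library, with C1 the deepest and V0 the shallowest. All 15 genes chosen as markers of K562 cells, among them the embryonic and fetal globins, could be tested. Levels of a gene between libraries are given in CPM, its fragments relative to the library's total with TMM scaling. The markers' summed level was 26330 and 30690 CPM in C0 and C1 and 27050 and 28800 in V0 and V1, of which the embryonic globin HBE1 made up 13270, 16020, 13190 and 13520. HBE1 was the only marker of the 15 with a positive log2 fold change (0.13, not called), 14 had negative ones, and HBA2 (−0.30, edgeR adjusted p = 0.0361) and GATA1 (−0.25, edgeR adjusted p = 0.0445) were called lower. The 13 markers of other blood cells summed to between 17.2 and 20.9 CPM, most of it CD3D (15.6 to 19.1), with 4 of them at 0 in every library. The 8 markers of stroma and epithelium summed to between 88.0 and 92.0 CPM, most of it EPCAM (70.8 to 75.2), with 1 at 0 in every library. The part of these markers in the tubulin values was not tested. Whether the paired samples of a group were grown separately is not stated in the labels. The p-values therefore cover the spread among these libraries alone, and part or all of it may be technical.

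The coding sequences start and end in ways that bear on how the genes can be told apart and on the decay of tubulin messages. The first 15 coding bases of 6 genes are shown because the codons after the start, in capitals, encode the residues that TTC5 reads on alpha- and beta-tubulin. Sequences are those of GENCODE release 29 (GRCh38), 1 transcript a gene.
TUBA1B: atgCGTGAGTGCatc
TUBA4A: atgCGTGAATGCatc
TUBB: atgAGGGAAATCgtg
TUBB2A: atgCGCGAGATCgtg
TUBB6: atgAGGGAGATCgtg
TUBG1: atgCCGAGGGAAatc
TUBA1A and TUBA1C begin exactly as TUBA1B does, and TUBB3 as TUBB6 does. TUBG1 carries another codon directly after its start.

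The last 60 coding bases of the beta genes are shown because tubulin isotypes differ most in their C-terminal tails. Capitals mark bases that a global alignment does not match to TUBB.
TUBB: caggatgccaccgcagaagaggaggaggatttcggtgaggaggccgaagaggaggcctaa
TUBB2A: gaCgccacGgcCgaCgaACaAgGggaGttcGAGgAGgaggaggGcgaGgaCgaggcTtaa
TUBB3: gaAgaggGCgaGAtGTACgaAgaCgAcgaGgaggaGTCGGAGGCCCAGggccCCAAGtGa
TUBB6: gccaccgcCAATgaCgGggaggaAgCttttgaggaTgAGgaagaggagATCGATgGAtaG
Over this stretch TUBB2A differs from TUBB at 18 of the 60 bases, TUBB6 at 20 and TUBB3 at 32.

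Over their whole coding sequence the TUBA1 genes are close copies. On GRCh38 the coding part of TUBA1B spans chr12:49127958-49131300 (minus strand), that of TUBA1A chr12:49185010-49188979 (minus strand) and that of TUBA1C chr12:49265182-49273227 (plus strand). TUBA4A lies apart, at chr2:219250352-219253858 (minus strand). The beta genes are spread over chr6:30720507-30724397 (TUBB, plus strand), chr6:3153863-3157463 (TUBB2A, minus strand), chr16:89923402-89935804 (TUBB3, plus strand) and chr18:12308293-12326130 (TUBB6, plus strand), and TUBG1 lies at chr17:42609738-42615041 (plus strand). Coding identity was 97.2% between TUBA1A and TUBA1B, 96.8% between TUBA1B and TUBA1C, and 85.7% between TUBA1B and TUBA4A. Among the beta genes it ranged from 81.0% for TUBB and TUBB6 to 87.7% for TUBB2A and TUBB3.

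These likenesses set how far a short read can name its gene. Of all 50-base stretches in the coding sequence, 75.8% of TUBA1B, 58.6% of TUBA1A and 57.0% of TUBA1C also occur in a transcript of another gene. TUBB2A shares 72.4% of its coding stretches with TUBB2B, TUBG1 shares 34.7% with TUBG2, and TUBB shares 29.2% with the pseudogene TUBBP1. For TUBB3, 95.8% of coding stretches and 97.95% of 3′ untranslated ones also occur in the gene model AC092143.1. Whether that model covers the TUBB3 locus itself, or was in the annotation behind the table, was not examined. With TUBB2A, TUBB3 shares 10.9%. TUBB6 shares 1.55% with other genes. The 3′ untranslated part of TUBA1C shares none, as do those of TUBA1A, TUBA1B and TUBB2A. The TUBA1C transcript used here has 3001 bases and that of TUBA1B 1627. Yet the deposited values place TUBA1C in a shorter length class than TUBA1B (2 against 3, of 10). How much of the 3′ untranslated part of TUBA1C was counted is therefore not known. How fragments from shared stretches were assigned is not given in the labels, and the deposited fragments of all 9 genes are whole numbers in every library. The error of that assignment was not measured. Judged by shared 50-base stretches alone, the values of the TUBA1 genes and TUBB2A may be less certain than those of TUBB6 and TUBA4A. For TUBB3 this depends on what AC092143.1 is.

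**Figure D1:**
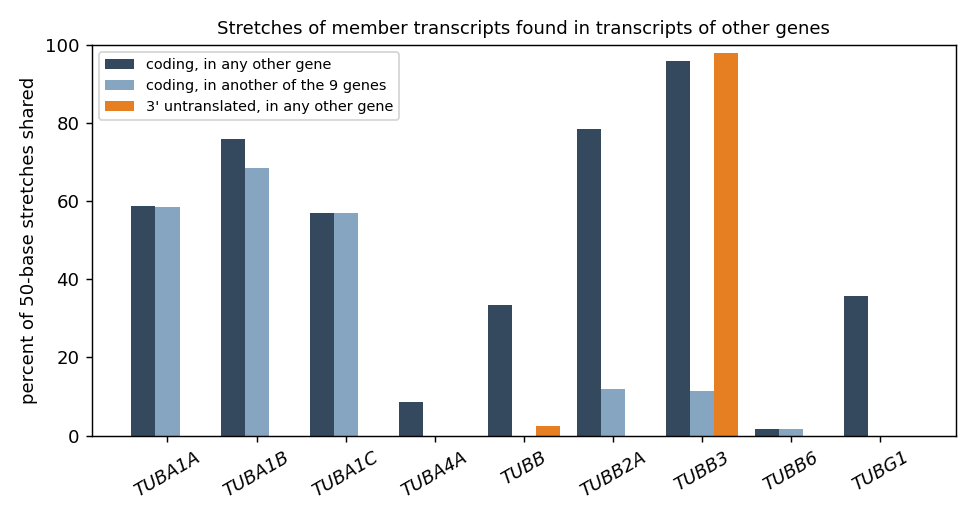
Percent of 50-base stretches of each gene's transcript that occur in transcripts of other genes (GENCODE release 29), for the coding part against all genes, for the coding part against the other tubulin genes examined, and for the 3′ untranslated part. TUBB6 (1.55%) and TUBA4A (8.55%) have the fewest shared coding stretches. TUBB3 (95.8%) has the most, with the gene model AC092143.1 counted as another gene.

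K562 cells expressed mainly 2 alpha-tubulin genes and 1 beta-tubulin gene of those examined. Levels between genes are compared as FPKM (fragments per kilobase of transcript at a common depth), a unit that accounts for length. In DMSO, TUBA1B stood at 1183 ± 44.6 FPKM (mean ± SD, n = 2) and TUBB at 1175 ± 14.6, a difference within their spread. TUBA1C followed at 537 and 586 FPKM in V0 and V1, then TUBB6 at 129 ± 3.26, TUBA4A at 73.4 ± 4.80 and TUBG1 at 51.8 ± 0.231. TUBB2A, at 25.7 ± 0.700 FPKM, TUBA1A at 10.7 ± 2.08 and TUBB3, an isotype best known from neurons, at 5.94 ± 0.204 were the lowest. Apart from TUBA1B and TUBB, the DMSO libraries of neighbouring genes in this order did not overlap. TUBB4B, another broadly expressed beta-tubulin gene, was measured at 382 ± 25.2 FPKM, between TUBA1C and TUBB6.

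None of the 9 genes was called at an adjusted p under 0.05 by edgeR's quasi-likelihood test, fitted over all 11761 genes with enough fragments. In that comparison 2.57% of all genes were called, 1.54% (181) as higher and 1.03% (121) as lower in clofarabine, a split that became 170 higher and 200 lower with library sizes alone as scaling. Without adjustment 2 of the 9 had a p under 0.05. Such values were frequent: TUBGCP2, with an unadjusted edgeR p of 0.04999, ranked 1674 of the 11761 genes. Counts under 0.05 given below are to be read beside that rank. DESeq2 and limma-voom each called 1 of the 9, TUBA1C, as lower. The log2 fold changes of clofarabine over DMSO ran from −0.25 for TUBA1C to 0.27 for TUBB2A, with a median of −0.035 beside 0.0020 over all genes. In bulk RNA a change in the share of cells that hold a transcript and a change in the amount per cell cannot be told apart.

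**Figure D2:**
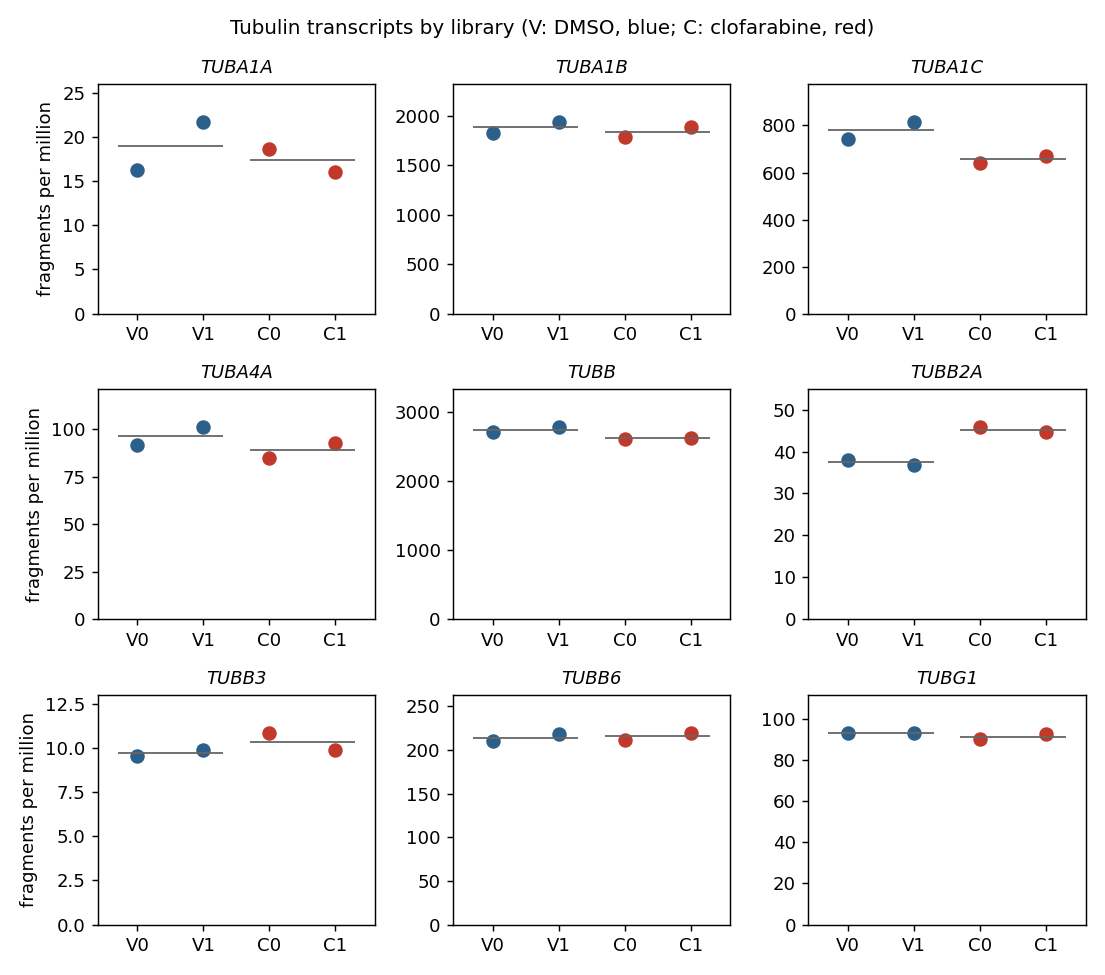
CPM (TMM-scaled, linear axis from 0) for each gene in the DMSO libraries V0 and V1 (blue) and the clofarabine libraries C0 and C1 (red), with the mean of each pair as a line. The groups stand apart visibly for TUBA1C (640 and 672 against 744 and 815) and TUBB2A (45.8 and 44.6 against 38.0 and 36.8).

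Of the alpha-tubulin genes, TUBA1B, the most abundant, had 1827 and 1936 CPM in V0 and V1 and 1783 and 1890 in C0 and C1. The groups overlapped, and its log2 fold change was −0.035 (SE 0.074, edgeR adjusted p = 0.902). Its 95% interval ran from −12.3% to 8.61%, and covers only the spread among these libraries. TUBA4A, an alpha-tubulin gene prominent in platelets, stood at 91.5 and 100.8 CPM in DMSO and 84.9 and 92.9 in clofarabine, again with overlap. Its log2 fold change was −0.11 (SE 0.079, edgeR adjusted p = 0.593). TUBA1A, known for its role in the developing brain, was low, with 16.3 and 21.7 CPM in DMSO and 18.6 and 16.1 in clofarabine. DMSO library V1 was the highest, with the other 3 libraries between 16.1 and 18.6, and the log2 difference of −0.15 (SE 0.15, edgeR adjusted p = 0.729) was 0.076 without V1.

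TUBA1C, the second alpha-tubulin gene by level, stood lower in both clofarabine libraries. It had 744 and 815 CPM in V0 and V1 and 640 and 672 in C0 and C1, from between 6314 and 15524 fragments a library. The log2 fold change was −0.25 (SE 0.070, 95% interval −0.39 to −0.10), with an unadjusted p of 0.00185 and an edgeR adjusted p = 0.0643. This gene lies at the threshold, ranking 338 of all genes by p. DESeq2 (adjusted p = 0.0220), limma-voom (adjusted p = 0.0428), library sizes alone as scaling (adjusted p = 0.0021) and no filter on low genes (adjusted p = 0.0097) called it. It was also called without C0 (adjusted p = 0.0191), without C1 (adjusted p = 8.3e-04) and after removal of the dependence on transcript length (adjusted p = 8.4e-04). It was not called on the log2(FPKM + 1) scale (adjusted p = 0.266), at equal depth (adjusted p = 0.0568), without V0 (adjusted p = 0.144) or without V1 (adjusted p = 0.755, log2 fold change −0.19).

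Scaling between libraries plays no part in a ratio of genes within a library, so TUBA1C was also set against its near copy. Per 100 fragments of TUBA1B there were 40.7 and 42.1 fragments of TUBA1C in V0 and V1, and 35.9 and 35.5 in C0 and C1. Against TUBA4A, which shares few stretches with either, TUBA1C had 813 and 808 fragments per 100 in DMSO and 754 and 723 in clofarabine. Both ratios were lower in each clofarabine library than in each DMSO library. These belong to 7 ratios chosen after the values were seen, and the exact two-sided permutation test over 2 against 2 libraries cannot give a p under 0.333 (0.333 for both, 0.467 adjusted). Other ratios among the 7 separated the groups too. Per 100 fragments of TUBB, TUBB6 had 7.71 and 7.85 in DMSO and 8.10 and 8.34 in clofarabine. TUBG1 had 3.42 and 3.34 in DMSO and 3.44 and 3.52 in clofarabine. The ratios of TUBA1A to TUBA1B and of TUBB4B to TUBB overlapped. A ratio shows unequal change and does not say which gene moved. Summed with TUBA1A and TUBA1B, so that the assignment of fragments among these genes no longer counts, the TUBA1 genes had a log2 fold change of −0.094 (edgeR adjusted p = 0.658).

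**Figure D3:**
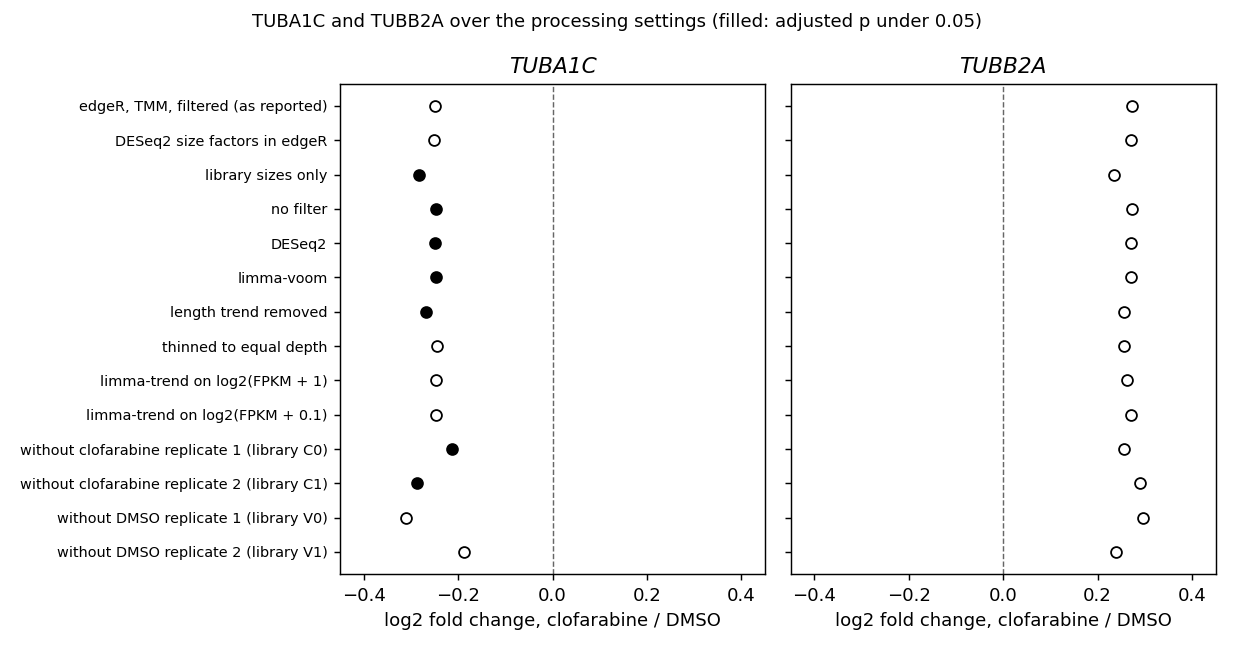
Log2 fold change (clofarabine over DMSO) of TUBA1C and TUBB2A under each processing setting with group as the only term, filled where the adjusted p was under 0.05. TUBA1C stays between −0.31 and −0.19, filled and open settings alike, and TUBB2A between 0.24 and 0.30 with no filled point.

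Among the beta-tubulin genes, TUBB, the main one in these cells, had 2721 and 2781 CPM in V0 and V1 and 2618 and 2629 in C0 and C1. Both clofarabine libraries were lower, but the log2 fold change was −0.068 (SE 0.075, edgeR adjusted p = 0.757), within an interval of −14.3% to 6.20%. TUBB6, a minor isotype found in many tissues, stood at 210 and 218 CPM in DMSO and 212 and 219 in clofarabine. Its log2 fold change was 0.010 (SE 0.065, edgeR adjusted p = 0.972), and its 95% interval ran from −8.28% to 10.6%. With library sizes alone the value was −0.026, so no direction can be read. TUBB3 had between 81 and 228 fragments a library, at 9.54 and 9.90 CPM in DMSO and 10.9 and 9.87 in clofarabine. The groups overlapped, 0.082 apart on the log2 scale (SE 0.17, edgeR adjusted p = 0.901).

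TUBB2A stood higher in both clofarabine libraries, but was not called. Its levels were 38.0 and 36.8 CPM in V0 and V1 and 45.8 and 44.6 in C0 and C1. The log2 fold change was 0.27 (SE 0.095, 95% interval 0.075 to 0.47), with an unadjusted p of 0.00894 and an edgeR adjusted p = 0.158. Its near copy TUBB2B, much less abundant, lay the same way, at 3.42 and 3.30 CPM in DMSO and 4.60 and 4.63 in clofarabine (log2 fold change 0.46, SE 0.29, edgeR adjusted p = 0.532). Since these genes share most of their coding stretches, they are not independent of each other. Summed, they had a log2 fold change of 0.29 (edgeR adjusted p = 0.111). Per 100 fragments of TUBB there were 1.40 and 1.32 of TUBB2A in DMSO and 1.75 and 1.70 in clofarabine, with no overlap. The exact permutation p was 0.333 (0.467 adjusted), and 2 against 2 libraries cannot give a p under 0.333. This ratio too was chosen after the values were seen.

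TUBG1, whose product seeds microtubules, was the steadiest of the 9 between DMSO libraries, with 93.1 and 93.0 CPM in V0 and V1. In C0 and C1 it had 90.1 and 92.6 CPM, both slightly lower. The log2 fold change was −0.025 (SE 0.075, edgeR adjusted p = 0.931), and the 95% interval ran from −11.7% to 9.39%. Its copy TUBG2 had between 6 and 19 fragments a library and was not tested, and adding its fragments gave −0.021.

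Over the 9 genes, the groups did not overlap in 4, where 43.2% of all genes tested show the same. Those were TUBB2A (higher in clofarabine, as 22% of all genes) and TUBA1C, TUBB and TUBG1 (lower, as 21.3%). The nearest patterns to that of TUBA1C over the 4 libraries, by Euclidean distance between centred log2 CPM, were those of NDUFAF3 (0.010), RYR2 (0.022) and DVL1 (0.023). These are given as a description, and none of these genes was called (edgeR adjusted p = 0.220, 0.816 and 0.208).

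**Figure D4:**
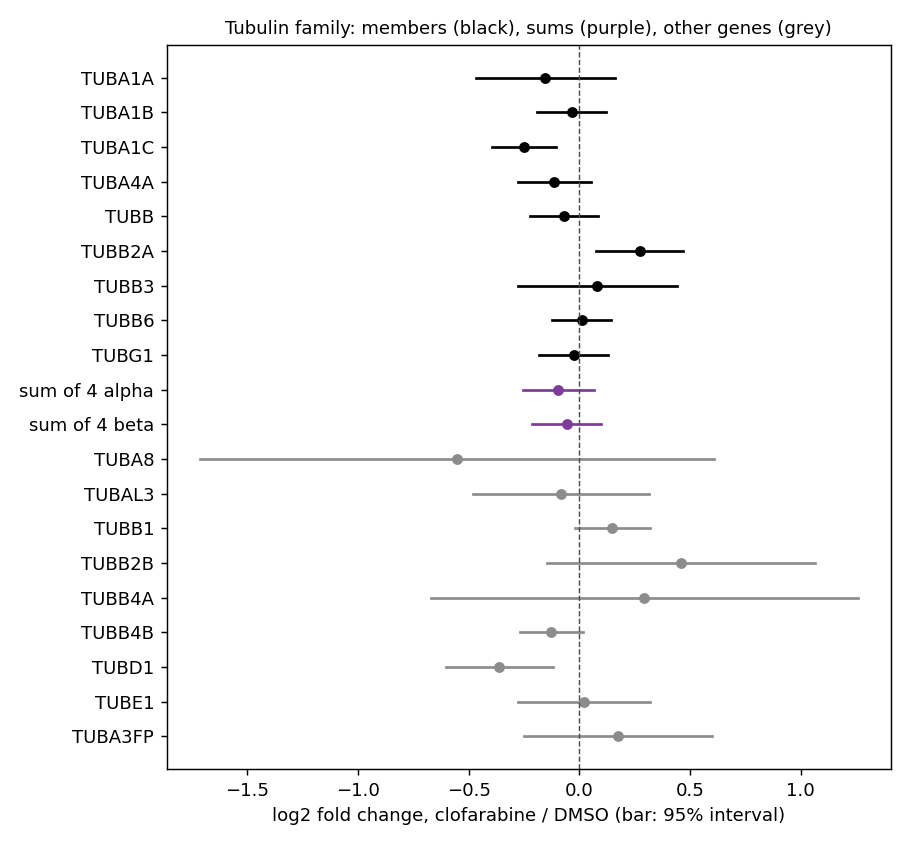
Log2 fold change (clofarabine over DMSO, points) with 95% intervals (bars) for the tubulin genes examined (black), the summed alpha and beta genes (purple) and the other tubulin genes that could be tested (grey). Among the genes in black, the intervals of TUBA1C and TUBB2A alone leave out 0, on opposite sides.

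Summed within each class, tubulin messages did not pass the test. The 4 alpha genes together had 2679 and 2873 CPM in V0 and V1 and 2527 and 2671 in C0 and C1. On the log2 scale they differed by −0.095 (SE 0.077, 95% interval −0.25 to 0.065, edgeR adjusted p = 0.657). For the 4 beta genes the sums were 2978 and 3046 CPM in DMSO and 2887 and 2903 in clofarabine, with a log2 difference of −0.057 (SE 0.075, 95% interval −0.21 to 0.099, edgeR adjusted p = 0.815). Taking in all alpha and beta genes of the table, TUBB4B included, gave −0.095 and −0.063.

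The make-up of each class is given per length, as shares of the class's summed FPKM, with no test. TUBA1B made up 65.1% and 64.3% of the 4 alpha genes in V0 and V1 and 67.6% and 67.8% in C0 and C1. TUBA1C made up 30.4% and 31.0% in DMSO and 27.8% and 27.6% in clofarabine. In the beta class TUBB held between 86.9% and 88.0% in every library. The share of TUBB2A was 1.98% and 1.87% in DMSO and 2.45% and 2.37% in clofarabine. TUBB6 held 9.60% and 9.76% in DMSO and 9.97% and 10.3% in clofarabine. With all beta-tubulin genes counted, TUBB4B held between 20.8% and 22.6%. The summed FPKM of the 4 alpha genes was 1.34 and 1.40 times that of the 4 beta genes in DMSO and 1.29 and 1.36 times in clofarabine, overlapping between groups.

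**Figure D5:**
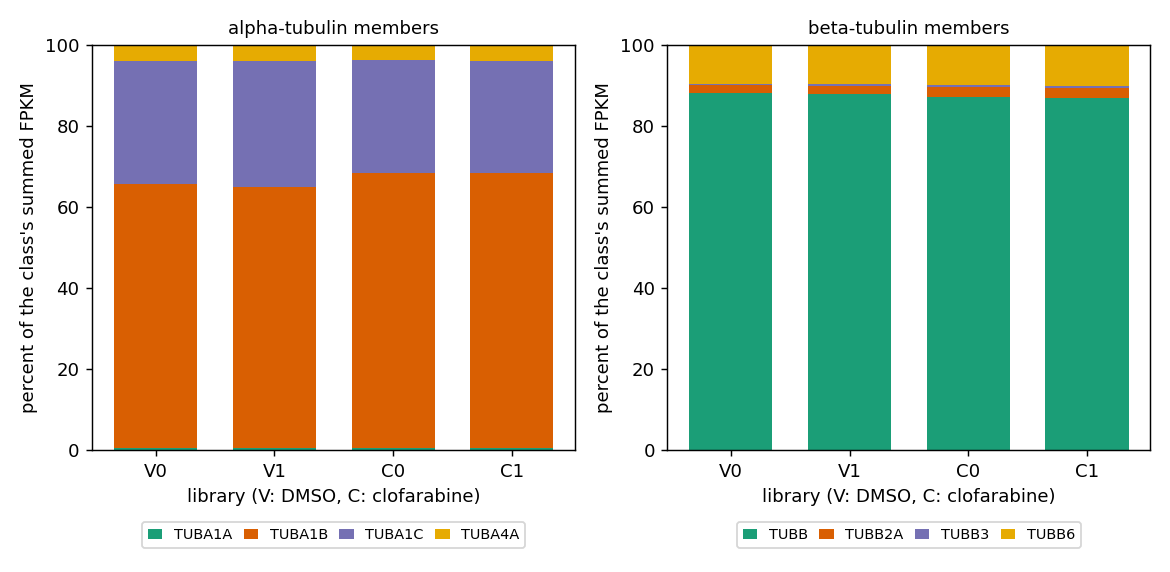
Share of each gene in the summed FPKM of the 4 alpha-tubulin genes (left) and the 4 beta-tubulin genes (right) in each library. TUBA1B and TUBA1C divide the alpha class, with TUBA1C between 27.6% and 27.8% in clofarabine and between 30.4% and 31.0% in DMSO, while TUBB holds at least 86.9% of the beta class.

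The other tubulin genes gave no call. Of 20 names listed, 16 were in the table and 9 could be tested. Calls among them by edgeR, DESeq2 and limma-voom numbered 0, but DESeq2 gave no adjusted p for TUBA8, TUBB2B and TUBB4A. By edgeR, 1 had an unadjusted p under 0.05. That one was TUBD1, the delta-tubulin gene of centrioles, at 35.7 and 30.9 CPM in V0 and V1 and 25.1 and 26.4 in C0 and C1 (log2 fold change −0.36, SE 0.12, edgeR adjusted p = 0.118). TUBE1, which encodes the epsilon-tubulin of centrioles, lay at 0.019 on the log2 scale (SE 0.14), or −0.017 with library sizes alone. TUBB4B lay at −0.13 (SE 0.068, edgeR adjusted p = 0.433). TUBB1, the beta-tubulin of megakaryocytes and platelets, stood at 61.5 and 62.7 CPM in DMSO and 68.7 and 69.1 in clofarabine (log2 fold change 0.15, SE 0.081, edgeR adjusted p = 0.429). TUBAL3 lay at −0.083 (SE 0.19), and the low genes TUBA8 (−0.55), TUBB4A (0.29) and TUBA3FP (0.18) were known only within wide errors, with SE of 0.56, 0.46 and 0.20.

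Of 23 genes listed for tubulin folding and related factors, 19 had positive log2 fold changes. Their median was 0.086, beside 0.0020 over all genes. The groups did not overlap in 13 of the 23 with clofarabine higher (22% of all genes) and in 1 with clofarabine lower (21.3%). An unadjusted edgeR p under 0.05 was found for 7 of the 23. Of the 23, 1 was called higher, where 1.54% of all genes were. That count was 2 with no filter (298 higher over all genes) and with the length trend removed (288). With DESeq2 (90 over all genes), at equal depth (168) and on both log2 FPKM scales (19 and 27) it was 0. Without C0 it rose, as did higher calls over all genes, and without V1 both fell. None was called lower, but 1 was with library sizes alone as scaling and without C1. PFDN4, a prefoldin subunit, rose from 18.3 and 15.5 CPM in V0 and V1 to 24.6 and 24.1 in C0 and C1 (log2 fold change 0.53, SE 0.13, edgeR adjusted p = 0.0347). It was not called by DESeq2 (adjusted p = 0.201), on log2(FPKM + 1) (adjusted p = 0.0974), at equal depth (adjusted p = 0.149) or without V1 (log2 fold change 0.41, adjusted p = 0.469). All 6 prefoldin subunits had positive log2 fold changes, from 0.12 to 0.53, and 5 had no overlap between groups, with clofarabine higher, as in 22% of all genes. These are short transcripts, in the shortest and the second shortest of 10 length classes. The shortest class held 78 of the 181 rises over all genes, and the second shortest, where PFDN4 lies, held 21. Apart from a fit with the length trend removed, the part of transcript length in the prefoldin values was not tested. With the length trend removed, PFDN4 had a log2 fold change of 0.50 (edgeR adjusted p = 0.0195). The 8 subunits of the chaperonin CCT had log2 fold changes between −0.014 and 0.12 with no call. TBCD, a cofactor that binds beta-tubulin, lay the other way (−0.27, SE 0.084, edgeR adjusted p = 0.103), and was picked after its value was seen.

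For the pathway that degrades tubulin messages, 0 of 12 genes were called by edgeR, DESeq2 or limma-voom, and 1 had an unadjusted p under 0.05. This was CNOT11, the CCR4-NOT subunit that the adaptor SCAPER contacts, with 94.2 and 94.3 CPM in DMSO and 83.9 and 84.5 in clofarabine (log2 fold change −0.16, SE 0.075, edgeR adjusted p = 0.324). TTC5, the factor that recognises nascent tubulin, was named for its role. It had 11.8 and 14.7 CPM in DMSO and 10.3 and 12.6 in clofarabine, which overlapped (log2 fold change −0.21, SE 0.17). Over the 12 genes the median was −0.024 on the log2 scale.

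Among enzymes that modify tubulin, 1 of 15 tested was called lower, where 1.03% of all genes were, and none was called higher. Of the 15, 9 had negative and 6 positive log2 fold changes, and the groups did not overlap in 5 with clofarabine lower (21.3% of all genes) and in 1 with clofarabine higher (22%). TTLL3, a tubulin glycylase, went from 21.9 and 19.2 CPM to 11.5 and 14.8 (log2 fold change −0.62, SE 0.15, edgeR adjusted p = 0.0291). It carries a failed status in the deposited table in libraries C1 and V0 and overlaps the joined gene ARPC4-TTLL3, so its value is uncertain. Its call was lost with DESeq2 (adjusted p = 0.151), on log2(FPKM + 1) (adjusted p = 0.180), at equal depth (adjusted p = 0.0742), without C0 (adjusted p = 0.0974) and without V0 (adjusted p = 0.0887).

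Of 21 genes of the gamma-tubulin complex and its recruitment, edgeR, DESeq2 and limma-voom called 0, and 3 had an unadjusted p under 0.05. Higher calls appeared among the 21 without C0, a fit that also called more genes higher over the whole table. HAUS1, a subunit of augmin, which branches new microtubules from existing ones, had 54.9 and 48.6 CPM in DMSO and 63.9 and 63.8 in clofarabine (log2 fold change 0.31, SE 0.088, edgeR adjusted p = 0.0679). It was called without C0 (adjusted p = 0.0425), without V0 (adjusted p = 0.0490) and with no filter (adjusted p = 0.0390), and stood at 0.21 without V1 (adjusted p = 0.762). HAUS1 was not called with the length trend removed (log2 fold change 0.26, edgeR adjusted p = 0.071) or at equal depth (0.26, edgeR adjusted p = 0.170). Its transcript is in the shortest of 10 length classes, which held 78 of the 181 rises over all genes. The 5 TUBGCP genes, whose products form the ring that carries gamma-tubulin, had log2 fold changes from −0.20 to 0.093.

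In a wider list of proteins that bind, sever, cap or sequester microtubules or tubulin, 28 genes were tested. Of them 2 were called lower, where 1.03% of all genes were, and none was called higher. Log2 fold changes were positive in 13 and negative in 15, with a median of −0.0061. An unadjusted edgeR p under 0.05 was found for 7 of the 28. The groups did not overlap in 6 with clofarabine higher (22% of all genes) and in 6 with clofarabine lower (21.3%). The count called lower was 3 with library sizes alone (200 lower over all genes), no filter (180) and the length trend removed (198). With DESeq2 (76 over all genes) and on both log2 FPKM scales (37 and 45) it was 1. It rose without C0 or C1 and fell without V0 or V1. A higher call appeared without C0, where higher calls over all genes also rose. TPX2, which activates Aurora A and promotes microtubule growth at the spindle, fell from 394 and 404 CPM in V0 and V1 to 295 and 301 in C0 and C1 (log2 fold change −0.42, SE 0.064, edgeR adjusted p = 3.7e-04). PRC1, which bundles microtubules in the spindle midzone, fell from 190 and 191 CPM to 154 and 161 (log2 fold change −0.27, SE 0.066, edgeR adjusted p = 0.0286). The TPX2 call held under every setting tried. The PRC1 call was lost with DESeq2 (adjusted p = 0.0547), on log2(FPKM + 1) (adjusted p = 0.143) and when V0 (adjusted p = 0.151) or V1 (adjusted p = 0.282) was left out. STMN1, which sequesters tubulin dimers and was named for that role, had 625 and 586 CPM in DMSO and 635 and 708 in clofarabine (log2 fold change 0.15, SE 0.071, edgeR adjusted p = 0.344).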

How the data were processed

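Per the submitters' processing notes, reads were handled with cutadapt 1.5, TopHat2 2.0.13 and Cuffdiff 2.2.1 on hg19. Which gene annotation and strand setting they used, and how messenger RNA was selected, are points not given in the sources used here. For each gene and library the authors deposited estimated counts of fragments and FPKM. The authors' signal of scaled fragments, divided by their FPKM, gave the relative transcript length used for length classes and the length trend. A failed status marks 6 genes, with 0 of the 9 tubulin genes among them. Libraries of 1 group differed by more than sampling noise (chi-square over its degrees of freedom was 6.55 between C0 and C1 and 2.73 between V0 and V1).

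Estimated counts were rounded, filtered by filterByExpr (minimum count 10), scaled by TMM and fitted over all genes in edgeR 4.0.16 under R 4.3.3 (glmQLFit and glmQLFTest, no term but group). A gene was called where its p, adjusted by Benjamini-Hochberg over all genes tested, was below 0.05. Each SE was taken as the size of the log2 fold change over the root of its F statistic. The common biological coefficient of variation was 6.01%. Alternatives were other scalings, no filter, DESeq2 1.42.0, limma-voom and limma-trend (limma 3.58.1) on log2(FPKM + 1) and log2(FPKM + 0.1), equal depth, removal of a length trend (loess, span 0.3), a replicate block, and leaving out each library. A group left with 1 library was assumed to vary like the other. Of these fits, only the main edgeR fit was tried on simulated data, with the same dispersion for every gene.

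The 9 genes and the related lists were chosen with earlier results of these data known. Named were all 9, the other tubulin genes tested, and, in each related list, the called genes (at most 3 each way, lowest p first) or, with no call, the gene of lowest p. TTC5, STMN1 and TBCD were added. The ratios of genes were also chosen after seeing the data. Sums of near copies (TUBB2A with TUBB2B, TUBG1 with TUBG2) were added after seeing the data. Sequences come from GENCODE release 29, whose build differs from that of the table. Some sequences are not reported here.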

Additional observations from a re-analysis of the deposited data

How the results depend on the processing

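Directions of TUBA1C, TUBA4A, TUBB, TUBB2A, TUBB3 and TUBG1 were the same under every setting tried. Of the 9, 1 gene, TUBA1C, was called as lower with library sizes only, no filter, DESeq2, limma-voom, the length trend removed and the replicate block, and the count ranged from 0 to 1 when a library was left out. With the replicate block 1 gene, TUBB2A, was called as higher (log2 fold change 0.27, adjusted p = 0.0478), as were TUBA1C (−0.25, adjusted p = 0.0025) and TUBD1 (−0.36, adjusted p = 0.0246) as lower. HAUS1 was also called under the block (0.31, adjusted p = 0.0048). In the related lists the block gave 5 higher and 1 lower for folding, 2 lower for modification, 1 higher for the gamma-tubulin complex and 3 lower for dynamics. The block moved the calls over the whole table to 494 higher and 302 lower, from 181 and 121. The labels do not say that a number marks a shared culture or day, and same-numbered libraries' deviations had a correlation of −0.0038, so the block rests on shared numbers only.

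Over the whole table, higher and lower calls were 90 and 76 with DESeq2, 298 higher with no filter, 200 lower with library sizes only, 288 and 198 with the length trend removed, 19 and 37 on log2(FPKM + 1) and 27 and 45 on log2(FPKM + 0.1). Leaving out a library gave between 57 (without V1) and 454 (without C0) higher and between 73 (without V1) and 182 (without C0) lower. With library sizes only TUBB6 was −0.026 and TUBE1 −0.017. Without a library TUBA1A ranged from −0.33 to 0.076, TUBA1B from −0.081 to 0.0072, TUBB6 from −0.019 to 0.035, TUBE1 from −0.084 to 0.11, TUBA8 from −1.06 to 0.079, TUBB4A from −0.26 to 1.47 and TUBA3FP from −0.025 to 0.37. Within these ranges, TUBB4A was −0.013, TUBE1 −0.056 and TUBA3FP −0.0071 without C0, TUBB6 −0.016 without V0 and TUBA1B 0.00049 without V1. The cause of these shifts was not tested. TUBA1A and TUBB3, with the fewest fragments of the 9, had the largest SE (0.15 and 0.17).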
